A study of Mus musculus with 4 samples.

Results

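Genes of early and transitional B cell development were followed in mature B cells of the B1a and B2 lineages. The set holds 9 genes, Vpreb3, Vpreb1, Igll1, Sox4, Cd93, Cd24a, Rag1, Rag2 and Dntt, out of 20599 gene symbols, and all 9 were listed in the deposited tables. The set was drawn up by name, but it was chosen by someone who knew earlier results of the same 4 libraries, in which Vpreb3, Sox4 and Cd93 were already described as higher in B2 cells. The levels of the 9 genes are therefore given as a description, without a test.

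RNA-Seq was performed on wild-type C57BL/6 cells, in 2 libraries of peritoneal B1a cells and 2 libraries of splenic follicular B2 cells, with no treatment. According to the methods the mice were littermate controls of Dnmt3a-deficient mice, although the methods also name C57BL/6J mice as controls. B1a cells were sorted from peritoneal washes as CD23- IgM+ CD5+ cells, and B2 cells were sorted from spleen as IgDhi IgMlo CD21+ cells. The labels give an age of 4 weeks for all 4 libraries, whereas the methods give an older age for the B2 mice. A supplementary figure drawn from RNA-Seq reads of both cell types also gives 4 weeks. Cell type, tissue and possibly age therefore cannot be told apart. The Dnmt3a-deficient cells themselves were not analysed here.

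Developing B cells assemble their antigen receptor genes by V(D)J recombination. RAG1 and RAG2 together form the enzyme that cuts the DNA, the end joining machinery closes the breaks, and terminal transferase, encoded by Dntt, adds untemplated bases at the joints. In pre-B cells the new heavy chain pairs with a surrogate light chain made of VPREB and lambda 5 (Igll1) proteins, and these genes are normally shut off as cells mature. CD93 (the AA4.1 antigen) and a high level of CD24 mark immature and transitional B cells, which leave the bone marrow for the spleen and there become follicular or marginal zone cells.

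The libraries held between 11032732 and 18588623 counts. Genes with at least 1 count numbered 11290 and 12456 in the B1a libraries and 14223 and 12934 in the B2 libraries. The methods give a range of sorted cells for B1a that reaches lower than the number for B2. An expected count is the estimated number of reads of a gene, TPM divides it by transcript length and scales each library to the same total, and CPM puts counts on a common scale of library size with TMM factors. A count of 3 was taken as the floor, the smallest amount told from none, and it covers counting error only. In the B1a libraries, Flt3 had 0 and 60 counts and Bst1 had 77 and 0 counts. A count of 0 can therefore stand beside a replicate well above the floor. A fold against the floor is a bound for counting error only. The labels do not say that the replicates came from separate mice. The methods name as many control mice for each cell type as there are libraries. A supplementary figure of RNA-Seq reads counts its n in animals. On that reading, the spread between replicates includes the spread between mice. On the log2 CPM scale the B2 replicates correlated at r = 0.966 and the B1a replicates at r = 0.836 across 12078 genes. These genes are not independent replicates. Across the cell types, r ran from 0.788 to 0.858. The upper end exceeded the r within B1a, so the B1a libraries did not form a group of their own on this measure. The B1a values are the less precise ones. The summed level of 5 B1a markers was 1181 and 893 CPM in the B1a libraries and 75.7 and 75.3 CPM in the B2 libraries, while 3 follicular markers summed to 728 and 586 CPM in the B1a libraries and to 2615 and 2806 CPM in the B2 libraries. The B cell markers Cd79a and Pax5 were present in every library, as the labels require of B cells. No immunoglobulin chain gene was listed in the tables, and the receptor genes themselves could not be followed.

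**Figure D1:**
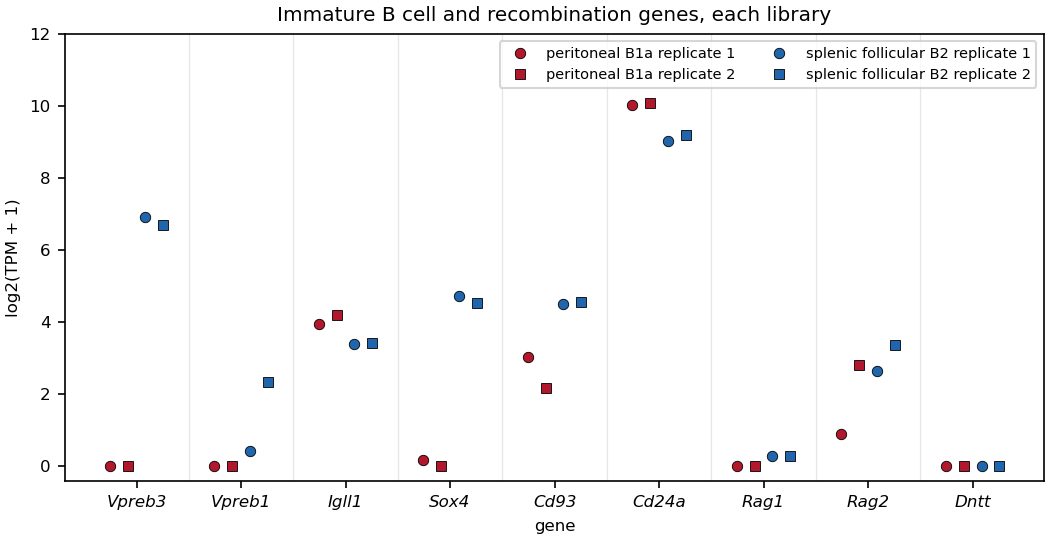
The level of each of the 9 genes is plotted as log2(TPM + 1) for the 4 libraries, with B1a in red, B2 in blue, replicate 1 as circles and replicate 2 as squares. Vpreb3 and Sox4 lie near the bottom of the axis in both B1a libraries and well above it in both B2 libraries, Cd24a is high in all 4 libraries, and Dntt lies at 0 in all 4.

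At the floor of 3 counts the genes fell into 3 kinds. Igll1, Cd93, Cd24a and Rag2 were above 3 counts in all 4 libraries. Vpreb3, Sox4 and Rag1 were at or under 3 counts in both B1a libraries and above it in both B2 libraries. The share of all genes with this pattern was not counted, and the B1a libraries held fewer genes with a count. Vpreb1 was above the floor in 1 B2 library only, and Dntt was at 0 in all 4 libraries. The values nearest to the floor were 2 counts of Sox4 in B1a replicate 1, just inside it, and 6 counts of Rag1 in B2 replicate 1, just outside it. Ordered by TPM in the B2 libraries, Cd24a came first, followed by Vpreb3, then Sox4 and Cd93, whose values overlapped, then Igll1 and Rag2, and then Vpreb1 and Rag1. In the B1a libraries the order was Cd24a, Igll1, then Cd93 and Rag2, whose values overlapped.

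Vpreb3 had counts in the B2 libraries only. It encodes a VPREB-like protein that binds immunoglobulin chains inside the cell. Its count was 0 in both B1a libraries and 267 and 385 in the B2 libraries. In TPM the B2 values were 119 and 102, 110 ± 12.2 (SD, n = 2), which placed Vpreb3 at the percentiles 92.2 and 90.4 of all listed genes in those libraries. Against the floor of 3 counts in each B1a library, Vpreb3 was at least 80.4-fold higher in B2 cells, a bound for counting error only. The groups did not overlap, and no other transcript of the mouse annotation shared a similar stretch of at least 75 bases with Vpreb3, so its reads had no close relative to be divided with.

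Vpreb3 lies at chr10:75943057-75949657 on the plus strand (GENCODE M21, GRCm38, the assembly also called mm10). The 250 bases before the RefSeq start site of Vpreb3 and of Sox4, the pair of genes near 0 in B1a cells and high in B2 cells, are shown because these are the sequences next to which transcription would begin. They were taken from RefSeq on GRCm38.p6, at chr10:75948050-75948299 on the plus strand for Vpreb3 and at chr13:28953700-28953949 on the minus strand for Sox4, and capitals mark the motif matches described after them.

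Vpreb3: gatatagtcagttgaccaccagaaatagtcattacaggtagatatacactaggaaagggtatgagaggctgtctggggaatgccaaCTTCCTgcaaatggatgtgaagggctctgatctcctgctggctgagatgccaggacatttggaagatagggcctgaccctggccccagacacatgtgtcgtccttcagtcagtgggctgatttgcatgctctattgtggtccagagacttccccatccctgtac

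Sox4: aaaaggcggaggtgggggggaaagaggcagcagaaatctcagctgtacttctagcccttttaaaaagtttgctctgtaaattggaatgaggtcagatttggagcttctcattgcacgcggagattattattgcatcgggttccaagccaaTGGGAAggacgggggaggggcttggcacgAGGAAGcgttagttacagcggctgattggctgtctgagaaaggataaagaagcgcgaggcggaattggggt

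Both strands of each window, which reached 50 bases past the start site, were searched for CAGGTG (an E-box), CCCNNGGG (the core of the EBF1 motif), TGTTTAC (a FOXO core), TGGGAA (an Ikaros core) and AGGAAG (an ETS core). Counting the start site as 0, Vpreb3 held CTTCCT, the other strand of the ETS core, at -164. Sox4 held TGGGAA at -100 and AGGAAG at -71. Among 32851 promoters of the same length, AGGAAG was found in 35.4%, TGGGAA in 25.6%, CAGGTG in 20.2%, CCCNNGGG in 13.7% and TGTTTAC in 3.65%, so that the matches in both promoters were of common kinds. No match overlapped another in the promoters shown, and a match is a description of the letters only. Of the 9 genes, 7 were matched to a RefSeq promoter. Rag1 held CAGGTG at -135, TGGGAA at -52 and CTTCCT at -148, Vpreb1 held CAGGTG at -88 and CTTCCT at -82, and the windows of Rag2 and Dntt held none of the 5 motifs.

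Vpreb1 encodes the V-like part of the surrogate light chain. Its counts were 0 and 0 in the B1a libraries and 1 and 20 in the B2 libraries, and 1 count is under the floor. Its difference therefore rested on B2 replicate 2, where it reached 4.02 TPM against 0.34 TPM in B2 replicate 1. B2 replicate 1, at 0.0867 CPM, lay under the B1a floor of 0.269 CPM. The B2 mean, carried by replicate 2, was 2.1-fold that floor, which is not a bound for both libraries. Too few counts were available for Vpreb1 to enter the fit across genes. Vpreb2, a near-copy that is 97.4% identical to Vpreb1 over 759 bases, was at 0 in all 4 libraries. Reads that fit both genes could have been divided between them, which was not tested. The posterior SD that RSEM gave for the Vpreb1 count was 0.15 in B2 replicate 1 and 0 in B2 replicate 2.

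Igll1, which encodes lambda 5, the constant-like part of the surrogate light chain, went the other way. Its expected counts were 55.89 and 68.06 in the B1a libraries and 32.13 and 55.09 in the B2 libraries. After scaling, its CPM was 5.02 and 6.12 in B1a cells and 2.78 and 2.88 in B2 cells, so that the groups did not overlap and B1a was 1.97-fold higher. The log2 difference was 0.98 with a standard error of 1.03 from the fit across genes, about as large as the difference itself. The counting interval of the pooled ratio ran from 1.48 to 2.61 (95%), and it does not include the spread between replicates. Igll1 was above the floor in both B1a libraries, in which Vpreb1 and Vpreb3 had no count.

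The Igll1 transcript resembles those of the lambda light chain constant genes. It was 78.9% identical to Iglc1 over 323 bases and between 71.3% and 74.6% identical to Iglc2, Iglc3 and Iglc4, and none of these 4 genes was listed in the deposited tables. The most alike stretch of 75 bases without a gap is shown for both genes, because a read from a light chain transcript would have to fit Igll1 across such a stretch to be counted there. It lies in coding exon 3 of Igll1 at chr16:16860944-16861018 and in the coding part of Iglc1 at chr16:19061881-19061955, both on the minus strand of GRCm38, and capitals mark the bases that differ.

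Igll1: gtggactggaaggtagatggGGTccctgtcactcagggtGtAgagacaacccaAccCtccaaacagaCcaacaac

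Iglc1: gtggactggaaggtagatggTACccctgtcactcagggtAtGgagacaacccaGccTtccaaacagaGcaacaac

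The stretches were identical at 67 of 75 bases and differed at 8, and the longest run of identical bases in the whole alignment was 20. Whether reads of lambda light chain transcripts were counted as Igll1 was not tested, since it needs the reads. RSEM gave Igll1 counts that were not whole, with a posterior SD between 0.31 and 0.97 counts, small beside the counts themselves. RSEM shares reads among listed entries only, so this SD does not cover reads of the unlisted lambda genes. The 250 bases before the RefSeq start of Igll1, at chr16:16863986-16864235 on the minus strand of GRCm38.p6, are given for comparison with those of Vpreb3 and Sox4, and capitals again mark motif matches.

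Igll1: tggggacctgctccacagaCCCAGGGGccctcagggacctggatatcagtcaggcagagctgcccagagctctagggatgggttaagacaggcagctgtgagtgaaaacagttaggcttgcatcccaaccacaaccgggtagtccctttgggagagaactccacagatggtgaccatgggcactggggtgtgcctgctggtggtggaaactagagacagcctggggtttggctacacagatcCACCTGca

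Igll1 held CCCAGGGG, a form of CCCNNGGG, at -231 and CACCTG, the other strand of the E-box, at -8. Neither of these motifs was matched in the windows of Vpreb3 or Sox4. Igll1 itself lies at chr16:16860671-16863985 and Vpreb1 at chr16:16868403-16870843, both on the minus strand and 4417 bases apart, as drawn in the map of both loci.

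**Figure D2:**
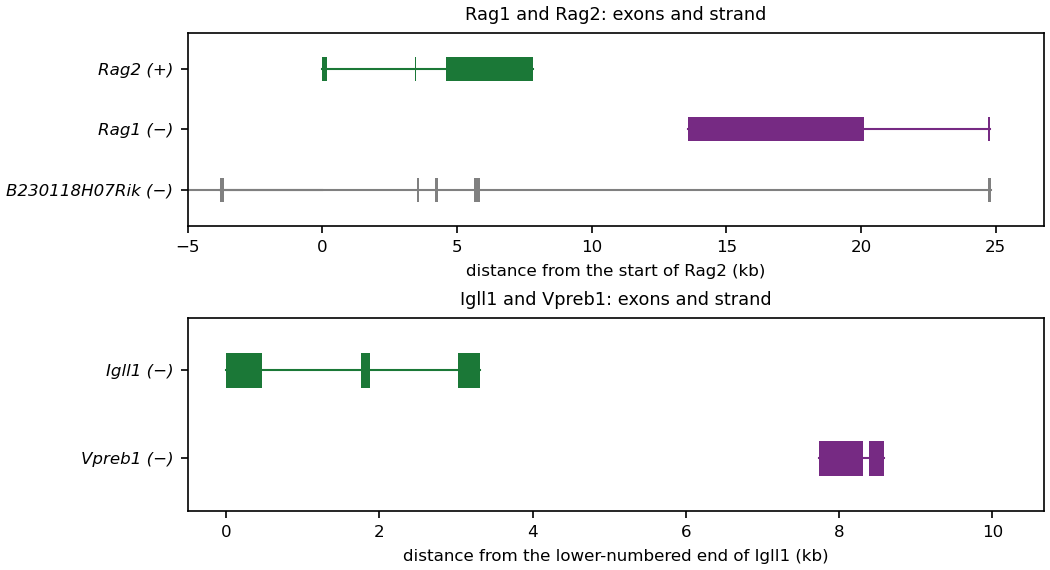
Exons (boxes) are drawn to scale along each gene, with the strand in brackets and distance in kb on the horizontal axis, for Rag2, Rag1 and the overlapping gene B230118H07Rik (top, where boxes from all its annotated transcripts are shown and the gene runs on past the left edge) and for Igll1 and Vpreb1 (bottom). Rag1 and Rag2 lie 5752 bases apart on opposite strands, and Igll1 and Vpreb1 lie 4417 bases apart on the same strand.

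The recombinase genes gave low and unequal levels. Rag1 had 0 and 0 counts in the B1a libraries and 6 and 10 counts in the B2 libraries, 0.21 TPM in each of the latter. Against the floor it was at least 1.94-fold higher in B2 cells, a bound for counting error only. Rag2 had 13.68 and 99.29 expected counts in the B1a libraries and 74.16 and 222.6 in the B2 libraries. In TPM, Rag2 was at 0.85 and 6.06 in B1a cells and at 5.26 and 9.37 in B2 cells. B1a replicate 2 lay above B2 replicate 1, so that the groups overlapped, and the B1a replicates differed 7.09-fold in CPM. The log2 difference of Rag2, B1a minus B2, was -0.83 with a standard error of 1.12. Without B1a replicate 1 it was -0.03 and without B1a replicate 2 it was -2.85, so that a single B1a library decided whether any difference was seen.

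RAG1 and RAG2 act only as a complex, and Rag2 was above Rag1 per length in every library. Rag2 lies at chr2:101624718-101632529 on the plus strand and Rag1 at chr2:101638282-101649501 on the minus strand. A further gene, B230118H07Rik, runs through both loci on the minus strand and shares 208 exon bases with Rag2, 6.07% of its transcript, on the opposite strand, and 80 exon bases with Rag1, 1.21% of its transcript, on the same strand. B230118H07Rik was listed with 0 and 0 counts in the B1a libraries and with 6 and 5 counts in the B2 libraries. The library kit was of a stranded type, but the use of strand in the counting is not given in the sources used here, so reads of overlapping genes may not be told apart. The Rag2 transcript also resembled those of 32 other genes, B230118H07Rik among them, which was identical over 210 bases, and the next closest over stretches near bases 2399 to 2914, and the posterior SD of Rag2 lay between 1.13 and 2.44 counts.

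Dntt, at chr19:41029275-41059525 on the plus strand, was at 0 counts in all 4 libraries. A count of 0 allows up to 3 counts, or between 0.161 and 0.272 CPM without the TMM factor. A comparison between B1a and B2 cells was not possible at this depth. Polm and Poll, the related polymerases that work in end joining in many cell types, were both present. Polm had 663 and 696 counts in B1a cells and 791 and 1313 counts in B2 cells, and Poll had 556 and 246 counts in B1a cells and 205 and 153 counts in B2 cells, and neither passed the test.

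Sox4 encodes an HMG box transcription factor needed for the pro-B to pre-B step. Its counts were 2 and 0 in the B1a libraries and 314 and 457 in the B2 libraries, or 25.6 and 22.1 TPM in the latter, 23.8 ± 2.47 (SD, n = 2). The summed counts of 2 against 771 gave a B2 to B1a ratio of 280 after scaling, with a 95% counting interval from 77.3 to 2317, and since the 2 counts are under the floor the size of this ratio is poorly known. The groups did not overlap. Without B1a replicate 1, which held both of the B1a counts, every remaining B1a count was 0.

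Sox4 lies at chr13:28948919-28953713 on the minus strand as 1 exon. GENCODE gives a transcript of 4795 bases, of which 2616, or 54.6%, lie opposite the exons of the long non-coding RNA Gm26735, which was not listed in the deposited tables. The transcript used in the tables was shorter, at 2967 bases. Its closest relatives carry the same HMG box, and Sox11, which is 88.4% identical over 259 bases, was at 0 in all 4 libraries. Sox12 had 96 and 22 counts in B1a cells and 76 and 66 counts in B2 cells, and did not pass the test.

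Cd93 encodes a surface receptor of immature B cells that is also made by endothelial, myeloid and plasma cells. Its expected counts were 226.81 and 113.02 in the B1a libraries and 610.38 and 1050.37 in the B2 libraries. In TPM it was at 7.15 and 3.49 in B1a cells and at 21.9 and 22.4 in B2 cells, 22.1 ± 0.325 (SD, n = 2). The groups did not overlap, and B2 was 3.53-fold higher in CPM. The log2 difference was -1.82 with a standard error of 0.41, and it was -2.41 without B1a replicate 1 and -1.41 without B1a replicate 2. The flow cytometry methods describe splenic follicular cells as AA4.1-, negative for the CD93 protein, whereas the sort described for RNA-Seq names no such gate.

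Cd93 lies at chr2:148436640-148443563 on the minus strand. Its transcript resembles those of 5539 other genes, the closest over a stretch near bases 4464 to 4639, 23 of them at 95% identity or more. The posterior SD of Cd93 was between 3.11 and 5.03 counts, the widest of the 9 genes and still small beside its counts. Thbd, a relative in the same receptor family, had 69 and 7 counts in B1a cells and 28 and 26 counts in B2 cells, while Clec14a and Cd248 were at 0 in all 4 libraries.

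Since Sox4 and Cd93 are used by other cells too, markers of those cells were read beside them. Of 7 endothelial markers, 1 and 3 were above the floor in the B1a libraries and 6 and 2 in the B2 libraries. Their summed level was 248 and 270 CPM in B1a cells and 337 and 289 CPM in B2 cells, nearly all of it Pecam1, and Emcn was at 0 in all 4 libraries. Cdh5, which defines endothelium, had 0 and 0 counts in B1a cells and 18 and 23 counts in B2 cells. Of 10 thymocyte and T cell markers, 8 and 7 were above the floor in the B1a libraries and all 10 in both B2 libraries. Their sum was 697 and 589 CPM in B1a cells and 253 and 303 CPM in B2 cells, most of it Cd2, which B cells also express. Thy1 had 0 and 0 counts in B1a cells and 41 and 103 counts in B2 cells, and Cd4 had 0 and 0 counts in B1a cells and 37 and 62 counts in B2 cells. Cd3e was also higher in B2 cells without overlap, at 2.6 and 0.899 CPM in B1a cells and 3.47 and 2.67 CPM in B2 cells. The list did not move as one, since Cd3d, Cd3g, Cd8a, Cd8b1 and Ptcra overlapped between the groups and Lck was at 56.5 and 45.1 CPM in B1a cells and 44.5 and 39.7 CPM in B2 cells. Of 4 plasma cell markers 3 were listed, summing to 82.6 and 103 CPM in B1a cells and 76.9 and 108 CPM in B2 cells. The part of such cells in the B2 levels of Sox4, Vpreb3, Cd93, Rag1 and Rag2 was not tested. In bulk samples, fewer cells of a type and less RNA per cell cannot be told apart.

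Cd24a encodes the heat stable antigen, a small surface protein that is high on immature B cells and lower on mature ones. It was by far the most abundant of the 9 genes, at 1036 and 1076 TPM in B1a cells and at 519 and 580 TPM in B2 cells. Its TPM percentile was 99.4 in both B1a libraries and 98.9 and 99.0 in the B2 libraries. In CPM it was at 782 and 833 in B1a cells and at 333 and 378 in B2 cells, so the groups did not overlap and B1a was 2.27-fold higher. The log2 difference was 1.18 with a standard error of 0.12, the smallest error of the 6 fitted genes, and leaving out any 1 library kept it between 1.09 and 1.27. Cd24a lies at chr10:43578284-43584265 on the plus strand, and the pseudogenes Gm6212, Gm15352 and Gm34023, which resemble it, were not listed in the tables.

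Red cells carry CD24 as well. Of 6 erythroid markers, 4 and 5 were above the floor in the B1a libraries and 5 in each B2 library, with a sum of 78.8 and 504 CPM in B1a cells and of 36.1 and 80.8 CPM in B2 cells. Cd24a differed 1.06-fold between the B1a replicates. The part of red cells in its level was not tested.

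Cd24a and Igll1 were the members higher in B1a cells, and Vpreb3, Sox4 and Cd93 were those higher in B2 cells without overlap, among the 6 genes with enough counts to enter the fit. Across all 12078 genes in the fit, 25.3% were higher in B1a without overlap and 29.0% were higher in B2. Because the genes were chosen with this contrast known, their p-values are not given and nothing is read from the comparison of these shares. Vpreb1, Rag1 and Dntt could not be fitted.

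**Figure D3:**
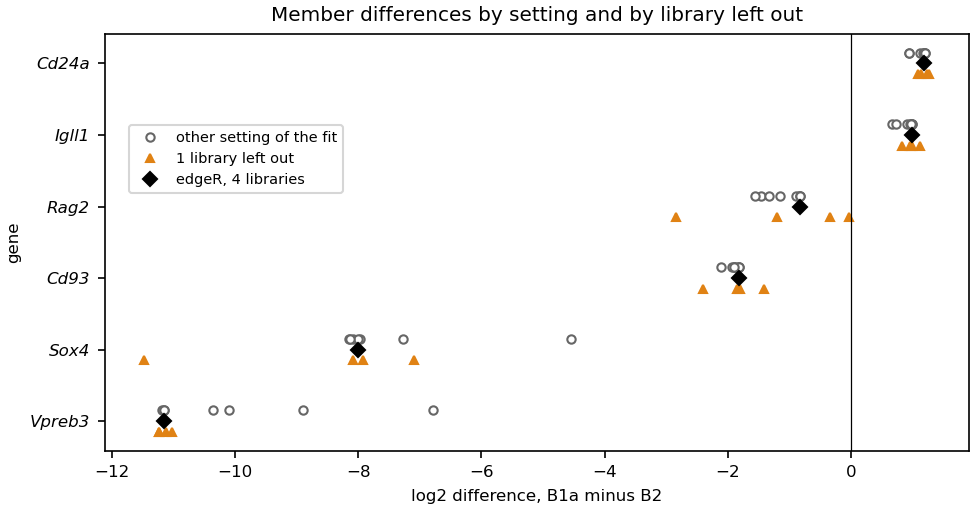
The log2 difference between B1a and B2 is plotted for the 6 fitted genes, with the edgeR fit of all 4 libraries as diamonds, other settings as open circles and fits without 1 library as triangles. Every point of Cd24a and Igll1 lies above 0 and every point of the others lies below it, Rag2 runs from -2.85 to -0.03, and the positions of Vpreb3 and Sox4, whose B1a counts are at or near 0, depend on the prior count of each fit and are not bounds.

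The genes whose CPM was most alike over the 4 libraries, by Euclidean distance on the log2(CPM + 1) scale, were sought for each member. For Vpreb3 they were Adap1, at a distance of 0.118, and Sox4, at 0.404, and for Sox4 they were Vpreb3 and Adap1. Adap1 was at 0 CPM in both B1a libraries and at 22.0 and 18.8 CPM in the B2 libraries. Cd93 was closest to B3gnt8 and Degs2, Igll1 to Coa4 and Tmem256, and Rag1 to Gp5 and Palm2. Cd24a was closest to the ribosomal protein genes Rps18 and Rps14. Rag2 was closest to Esrp2, at 1.08 and 10.4 CPM in B1a cells and 6.25 and 11.0 CPM in B2 cells, which shared its spread between the B1a replicates. Only 4 libraries enter these distances, and many patterns over so few points are alike.

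The wider pathways were then examined in 4 lists of companion genes, tested across all genes. These lists too were chosen with earlier results of the same libraries known, so their calls describe these libraries and are not independent support. For the lists, a call means an adjusted p under 0.05 from the quasi-likelihood test of edgeR after Benjamini-Hochberg correction, and differences are log2, B1a minus B2. Across all 12078 genes tested 5.74% were called, 4.24% as higher in B1a and 1.5% as higher in B2, and at an unadjusted p under 0.05 the share was 20.9%. The median difference of all tested genes was -0.03.

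The machinery that closes RAG breaks was counted in both cell types, and in every library except for Nhej1, which was at 0 in B1a replicate 1 and at 43, 40 and 79 counts in the others. All 16 end joining genes were tested, 1 was called and 15 were not, and the median difference was -0.09. Hmgb2, a DNA bending protein that aids RAG cutting, was higher in B1a cells by 1.16 ± 0.17 (SE; adjusted p = 0.0183), at 118 and 113 TPM in B1a cells and 60.5 and 61.4 TPM in B2 cells. The Hmgb2 call was lost without B2 replicate 1 (adjusted p = 0.113), without B2 replicate 2 (adjusted p = 0.093) and with limma on log2(TPM + 0.1), and the cycling markers Mki67, Top2a and Birc5, which Hmgb2 often accompanies, summed to 212 and 153 CPM in B1a cells and 83.8 and 114 CPM in B2 cells. Their part in the Hmgb2 difference was not tested. Hmgb1, its relative, had the highest level of the list, at 280 and 319 TPM in B1a cells and 489 and 468 TPM in B2 cells, a difference of -0.43 ± 0.13 (SE) that was not called. Dclre1c, which encodes the Artemis nuclease that opens hairpin ends, was at 92.5 and 59.3 TPM in B1a cells and at 106 and 97.7 TPM in B2 cells and overlapped between them.

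Transcription factors and other regulators that act on the Rag genes and on the early B cell program had more calls than the end joining genes. Of 16 genes 15 were tested, 5 were called as higher in B2 and 0 as higher in B1a, with a median difference of -0.42. At an unadjusted p under 0.05 there were 8 genes higher in B2 and 1 higher in B1a, 60% of those tested. That share was 18.8% for the end joining genes, 45.5% for the pro-B and pre-B stage genes and 91.7% for the follicular maturation genes. Across all tested genes, 1114 were higher in B2 and 1411 in B1a at this threshold. Irf8, which acts with Irf4 at the pre-B stage, differed by -1.84 ± 0.13 (SE; adjusted p = 0.00236), at 90.6 and 81.8 TPM in B1a cells and 369 and 350 TPM in B2 cells. Bcl11a, needed for early lymphoid development, differed by -1.26 ± 0.12 (SE; adjusted p = 0.0049). Foxo1, an activator of the Rag genes, differed by -1.04 ± 0.12 (SE; adjusted p = 0.00907), at 105 and 90.4 TPM in B1a cells and 237 and 236 TPM in B2 cells. Pax5, the B lineage commitment factor, differed by -0.90 ± 0.11 (SE; adjusted p = 0.01), and Ebf1, which acts with it, by -0.58 ± 0.11 (SE; adjusted p = 0.0431). With any 1 library left out, the difference of Irf8 ran from -1.92 to -1.76 and that of Bcl11a from -1.32 to -1.2. That of Foxo1 ran from -1.13 to -0.95 and that of Pax5 from -0.92 to -0.89. Ebf1 ran from -0.61 to -0.54, and its call was lost without B2 replicate 1 and without B2 replicate 2. Each such fit takes its spread from the group that keeps both libraries, so a call kept there is not added support.

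The most abundant regulators by mean TPM that were not called were Ets1 and Ikzf3. Ets1 was at 489 and 562 TPM in B1a cells and 841 and 846 TPM in B2 cells, and Ikzf3, which encodes Aiolos, at 474 and 492 TPM in B1a cells and 770 and 763 TPM in B2 cells. Gfi1b, a repressor of the Rag genes, had 15 counts in B1a replicate 1 and 0 in the other 3 libraries, and was not tested.

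Genes of the pro-B and pre-B stages were low or at the floor in many cases. Of 18 genes 7 were at or under 3 counts in all 4 libraries, namely Vpreb2, Cd34, Erg, Arpp21, Sox11, Mme and Enpep, and the other 11 were tested. Bcl7a was the 1 gene called, with a difference of -1.15 ± 0.23 (SE; adjusted p = 0.0467), at 20.9 and 24.7 TPM in B1a cells and 60.3 and 59.1 TPM in B2 cells. That call was lost without B2 replicate 1 (adjusted p = 0.377), without B2 replicate 2 (adjusted p = 0.37) and with limma on either TPM scale. The median difference of the 11 was -0.24. Il7r, the receptor through which pro-B cells receive interleukin 7, had 0 and 0 counts in B1a cells and 33.23 and 57 counts in B2 cells, and was not called (adjusted p = 0.134). Kit, a progenitor receptor, had 75 and 74 counts in B1a cells and 17 and 0 counts in B2 cells and was not called either (adjusted p = 0.449). The highest levels of the list were those of Cplx2, at 53.8 and 46.2 TPM in B1a cells and 55.0 and 49.5 TPM in B2 cells, of Bcl7a and of Myb, at 30.2 and 27.9 TPM in B1a cells and 20.9 and 33.7 TPM in B2 cells. Mme, Dntt and Vpreb2 were thus at 0 in both groups, while Vpreb3 and Sox4 were above the floor in B2 cells alone. So were Rag1, Il7r and Tcf7l2, the last at 0 and 0 counts in B1a cells and 28 and 17 counts in B2 cells. The markers of other cells Thy1, Cd4 and Cdh5 shared this pattern, as did the neutrophil markers Camp, S100a8 and S100a9.

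Genes that change as transitional cells become follicular cells differed in both directions. All 12 were tested, 5 were called as higher in B2 and 4 as higher in B1a, and the median difference was -0.61. Fcer2a (CD23) differed by -3.87 ± 0.12 (SE; adjusted p = 0.0003) and Cr2 (CD21) by -3.40 ± 0.12 (SE; adjusted p = 0.000453), and since the sorts gated on CD23 and CD21 this pair is not a finding. Tnfrsf13c, the BAFF receptor that keeps mature B2 cells alive, differed by -1.60 ± 0.14 (SE; adjusted p = 0.00384), at 125 and 112 TPM in B1a cells and 432 and 415 TPM in B2 cells. Klf2, which holds naive cells in recirculation, was higher in B1a cells by 1.41 ± 0.10 (SE; adjusted p = 0.00236), at 1810 and 1655 TPM in B1a cells and 771 and 769 TPM in B2 cells. Cxcr5, the follicle homing receptor, was higher in B1a cells by 1.34 ± 0.12 (SE; adjusted p = 0.00428), as was S1pr1, the exit receptor, by 0.96 ± 0.12 (SE; adjusted p = 0.00904). Cd22, an inhibitory receptor, was called as higher in B2 cells (adjusted p = 0.0417), at 625 and 437 TPM in B1a cells and 1224 and 1109 TPM in B2 cells. The remaining calls were Cd55 in B2 cells and Cd44 in B1a cells, and those of Cd22 (adjusted p = 0.06) and Cd44 (adjusted p = 0.0506) were lost with limma on log2(TPM + 0.1). Cd93, a marker that is lost as transitional cells mature, was thus measured in the same B2 libraries as high levels of Tnfrsf13c, which is gained.

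**Figure D4:**
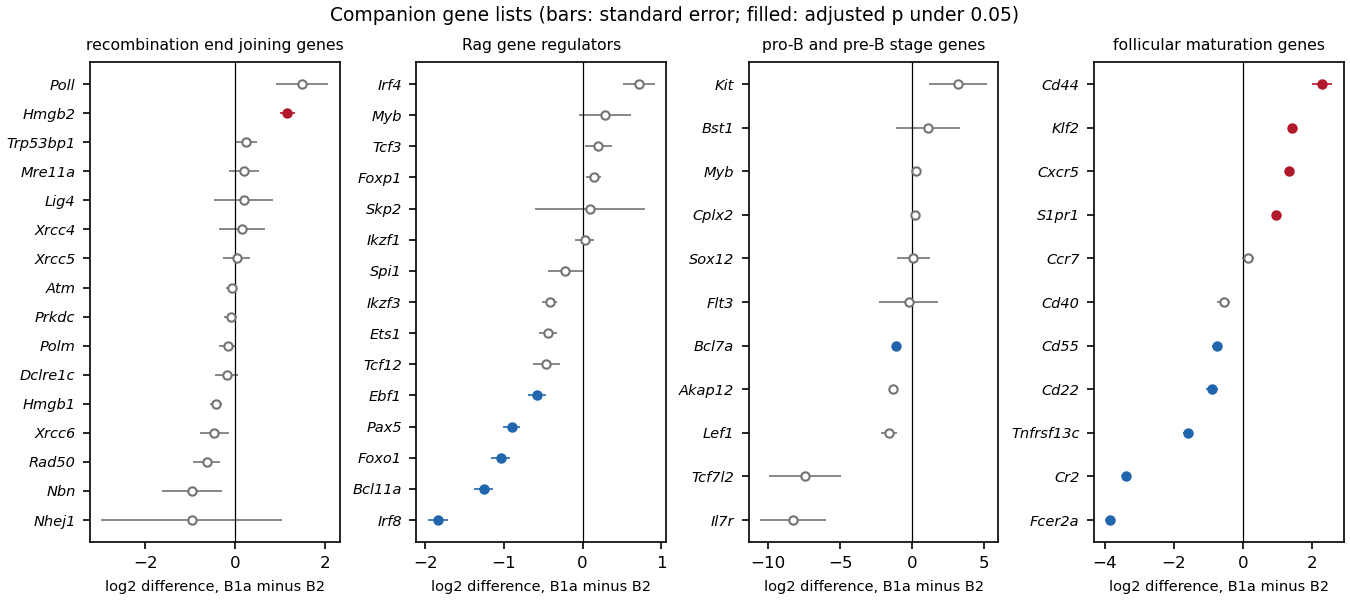
The log2 differences of the tested companion genes, apart from 1 follicular maturation gene that was not called, are plotted by list with standard errors, on a horizontal axis whose range differs between panels, with called genes filled in red (higher in B1a) or blue (higher in B2) and the others open. All 5 called Rag gene regulators lie left of 0, 1 end joining gene and 1 pro-B and pre-B stage gene are filled, and the follicular maturation genes have filled points on both sides.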

How the data were processed

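RNA-Seq of 2 B1a and 2 B2 libraries was analysed. Reads had been aligned to mm10 and assigned to RefSeq genes by the authors with RSEM (version 1.2.29 per the labels). The deposited tables give 21970 gene entries with an expected count each, not normalized, where RSEM shares out reads that match more than 1 entry. They also hold deposited TPM values, FPKM values, which were not used, and a signal value, the posterior standard deviation of each count. Entries were summed by symbol to 20599 genes and rounded, filtered with filterByExpr, scaled by TMM (factors 0.963 to 1.05) and compared by the quasi-likelihood test of edgeR 4.0.16 (R 4.3.3) with Benjamini-Hochberg adjustment at 0.05 and no replicate block. The common biological coefficient of variation was 0.507. Standard errors were derived from the F statistic. The methods name EBSeq, which was not run here.

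The 9 genes and the companion lists were chosen with earlier results of these data known. From each list the called genes, up to 6 by the smallest p, and the 3 with the highest mean TPM were named, others singly after their values were seen, and some items are not reported here. Positions came from GENCODE M21, promoters from RefSeq (GRCm38.p6), and similar transcripts from BLAST 2.17.0 (stretches of at least 75 bases). Alternatives were upper quartile factors, DESeq2 1.42.0 and its size factors, limma-voom (limma 3.58.1), 2 count filters, limma on log2 TPM with a pseudocount of 1 or 0.1, a replicate block and each library left out. The tests were tested on simulated data. Deviations of same-numbered libraries correlated at r = -0.0347, so replicate numbers were not taken as pairs.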

Additional observations from a re-analysis of the deposited data

How the results depend on the processing

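The direction of each of the 6 fitted members was the same in every alternative that gave a value. Ranges of the log2 difference over the alternatives and the libraries left out were 0.94 to 1.27 for Cd24a, 0.67 to 1.11 for Igll1, -2.41 to -1.41 for Cd93, -2.85 to -0.03 for Rag2, -11.48 to -4.54 for Sox4 and -11.24 to -6.79 for Vpreb3. With at least 10 counts in every library, Sox4 and Vpreb3 gave no value.

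The number of genes called moved more. It was 693 in the edgeR fit, 1562 with DESeq2, 1141 with at least 1 count in any library, 359 with limma on log2(TPM + 0.1), and between 539 and 6143 with 1 library left out, where 3953 were called without B1a replicate 1 and 6143 without B1a replicate 2, since the lone B1a library was then assumed to vary like the B2 libraries. End joining genes called numbered 1 in the edgeR fit, 2 with DESeq2, 0 with limma on log2(TPM + 0.1), and between 0 and 7 with 1 library left out. The single end joining call was in B1a cells, whereas without B1a replicate 1 there was 1 in B1a cells and 3 in B2 cells. Rag gene regulators called numbered 5, 8 with DESeq2, and between 4 and 9 with 1 library left out. Pro-B and pre-B stage genes called numbered 1, 3 with DESeq2, 2 with limma-voom, 2 with at least 10 counts in every library, 2 with at least 1 count in any library, 0 with limma on log2(TPM + 1), 0 with limma on log2(TPM + 0.1), and between 0 and 7 with 1 library left out. The count of follicular maturation genes stayed within 1.5 times its value of 9. Beyond what each fit assumes, the cause of these moves was not tested.

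The replicate numbers are shared by name only (r = -0.0347 over both pairs of deviations). With the replicate block, 1481 genes were called in all, 2 end joining genes, 8 Rag gene regulators and 2 pro-B and pre-B stage genes.

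The B1a replicates of Rag2 differed 7.09-fold, and the difference of Igll1 was about as large as its standard error, so that neither is settled by 2 libraries in each group. The levels of Vpreb1, Rag1 and Dntt lay near or under the floor of 3 counts.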

Other observations

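Markers of other cells were counted in every library. Of 9 macrophage markers 8 were listed, and their summed level was 211 and 246 CPM in the B1a libraries and 64.8 and 67.2 CPM in the B2 libraries. Lyz2, a lysozyme of myeloid cells, was the 1 macrophage marker called, with 1422 and 1508 counts in B1a cells and 194 and 520 counts in B2 cells, at 127 and 136 CPM in B1a cells and 16.8 and 27.2 CPM in B2 cells. C1qa, C1qb, C1qc and Cd68 were also higher in B1a cells without overlap but were not called, for instance C1qa at 24.4 and 17.4 CPM in B1a cells and 4.6 and 6.06 CPM in B2 cells, while Csf1r and Mrc1 overlapped between the groups. Of 6 neutrophil markers 5 were listed, with sums of 0 and 0.989 CPM in B1a cells and 3.73 and 12.7 CPM in B2 cells. The 3 marginal zone markers summed to 233 and 124 CPM in B1a cells and to 237 and 261 CPM in B2 cells, and none of them was called. Of the plasma cell markers, Prdm1 was higher in B1a cells by 2.82 on the log2 scale (edgeR's quasi-likelihood test, adjusted p = 0.0346), with 250 and 403 counts in B1a cells and 48 and 79.01 counts in B2 cells. Sdc1 lay the other way without overlap, with 0 and 92 counts in B1a cells and 155 and 483 counts in B2 cells, and was not called (adjusted p = 0.543), and Xbp1 overlapped. The cell type that contributed these counts was not tested.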
